A study of Mus musculus with 32 samples.

Results

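Protein disulfide isomerases and the enzymes that oxidize them in the endoplasmic reticulum (ER) were followed through acute and prolonged ER stress in mouse embryonic fibroblasts. The group held 10 of the 20234 genes of the count table, taken by symbol: P4hb, Pdia3, Pdia4, Pdia5, Pdia6, Txndc5, Ero1l and Ero1lb (also called Ero1a and Ero1b), Prdx4 and Creld2. Fibroblasts were left without thapsigargin (control), kept in thapsigargin for 1 h or for 16 h, or kept in it for 16 h and given a PERK inhibitor for the final 4 h of that time (16 h + PERKi). Each of the 4 conditions had 4 replicates, and each replicate gave a cytosolic RNA library and a library of RNA from gradient fractions with more than 4 ribosomes (polysome RNA), which made 32 libraries. All groups share the same cell type, and no inhibitor group without thapsigargin was analysed here. The sources used here do not give the thapsigargin dose, the solvent, the inhibitor's name and dose, or whether the fibroblasts were primary, from 1 embryo or an established line.

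Secreted and membrane proteins gain their disulfide bonds in the ER. Protein disulfide isomerases carry thioredoxin-like domains whose paired cysteines pass a disulfide to a client protein or reshuffle a wrong one. The flavoenzymes Ero1l and Ero1lb reoxidize the isomerases with molecular oxygen and release hydrogen peroxide, and the peroxiredoxin Prdx4 uses that peroxide to make further disulfides. Thapsigargin blocks the SERCA pumps that fill the ER with calcium, and unfolded proteins then activate the sensors PERK, IRE1 and ATF6. PERK phosphorylates the initiation factor eIF2 and lowers translation initiation, whereas ATF6 and XBP1 act on promoters of ER folding genes, among them promoters with the ER stress response element (ERSE).

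Library totals ran from 19.32 M to 41.78 M counts (M for mega), the lowest count of any of the 10 genes in any library was 166, and all 10 passed the filter on low counts in every fit. Of 8 fibroblast markers, 7 were over 1 CPM (the usual count scale relative to library total, here with TMM-normalized totals) in each of the 8 groups of libraries (Fap was not), and their summed level in cytosolic RNA was 5329.3 to 8176.4 CPM in control, 11038.2 to 14641.8 at 1 h, 2073.8 to 2830.2 at 16 h and 3043.6 to 3633.2 at 16 h + PERKi. Markers of epithelium and of muscle summed to under 1 CPM in every library, and those of endothelium to at most 2.09. The 5 blood and macrophage markers summed to 5.19 to 6.49 CPM in cytosolic control RNA, where Cd68, Csf1r and Lyz2 were over 1 CPM. In cytosolic RNA at 16 h they summed to 1.45 to 2.24, with none over 1 CPM and Adgre1 at 0. Csf1r was over 1 CPM in polysome RNA at 16 h. The 4 neural markers, of which Tubb3 alone was over 1 CPM and Sox10 was at 0 in each cytosolic group, summed in cytosolic RNA to 1.3 to 2.79 in control, 10.6 to 18.4 at 16 h and 1.89 to 2.72 at 16 h + PERKi. These marker sums moved with the conditions, and their part in the results was not tested. In these bulk samples, fewer cells that express a gene and less RNA per cell cannot be told apart.

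The promoters of the 10 genes are described first, and whether matches to the ERSE bear on the changes in RNA was not tested. The ERSE was searched as CCAAT, 9 bases, CCACG on both strands, in windows from 250 bases before to 50 bases after each RefSeq start (GRCm38.p6). All 10 genes matched the RefSeq promoter table by symbol, with 3 starts for Txndc5. Exact matches lay in the windows of Pdia6, Ero1lb and Creld2, and matches with 1 letter different in those of Pdia3 and Pdia4. The search over other genes took full-length windows only and left out 1 chromosome, on which none of the 10 genes lies. Among these 32851 windows of 27025 genes (called all windows below), 0.119% held an exact match and 1.4% a match with 1 letter different. Each line gives the 94 bases around the match, 5′ to 3′ on the strand of the gene, with capitals on both conserved parts of the element (read in reverse complement in Pdia4, Ero1lb and Creld2).
Pdia6 chr12:17266446-17266539 (plus strand): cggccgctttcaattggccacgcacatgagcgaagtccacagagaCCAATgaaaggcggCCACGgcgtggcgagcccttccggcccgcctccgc
Ero1lb chr13:12565637-12565730 (plus strand): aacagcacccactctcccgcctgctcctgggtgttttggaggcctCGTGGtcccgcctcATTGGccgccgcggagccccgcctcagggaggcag
Creld2 chr15:88819475-88819568 (plus strand): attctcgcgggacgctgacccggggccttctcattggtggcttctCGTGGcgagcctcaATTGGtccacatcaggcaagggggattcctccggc
Pdia4 chr6:47813572-47813665 (minus strand): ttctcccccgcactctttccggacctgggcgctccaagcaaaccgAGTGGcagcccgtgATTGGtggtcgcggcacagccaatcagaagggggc

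Written on the strand of the motif, the 5 matches read as follows, with capitals on the conserved parts.
Pdia6: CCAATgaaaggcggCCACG
Ero1lb: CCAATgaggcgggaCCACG
Creld2: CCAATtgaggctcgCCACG
Pdia3: CCAATcggcggctgCCACA
Pdia4: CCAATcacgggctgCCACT
The different letter of Pdia3 and Pdia4 was the last one of the CCACG part. Counted in bases from the RefSeq start, matches began at -98 in Pdia6, -201 in Ero1lb, -126 in Creld2, -29 in Pdia3 and -108 in Pdia4. These were also the 5 genes with the highest change in cytosolic RNA at 16 h (log2 1.69 to 2.54), an order given as a description with no test. No window held ERSE-II (ATTGG, 1 base, CCACG; 0.0365% of all windows). The UPRE core TGACGTGG (0.676% of all windows) occurred at the third listed start of Txndc5 and the ATF4 composite core TGATGNAA (3.97%) at its first. The parts alone were common, with CCACG in 9 of the 10 genes (32.8% of all windows) and CCAAT in 7 (37.4%). These counts include the parts that lie inside the ERSE matches.

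**Figure D1:**
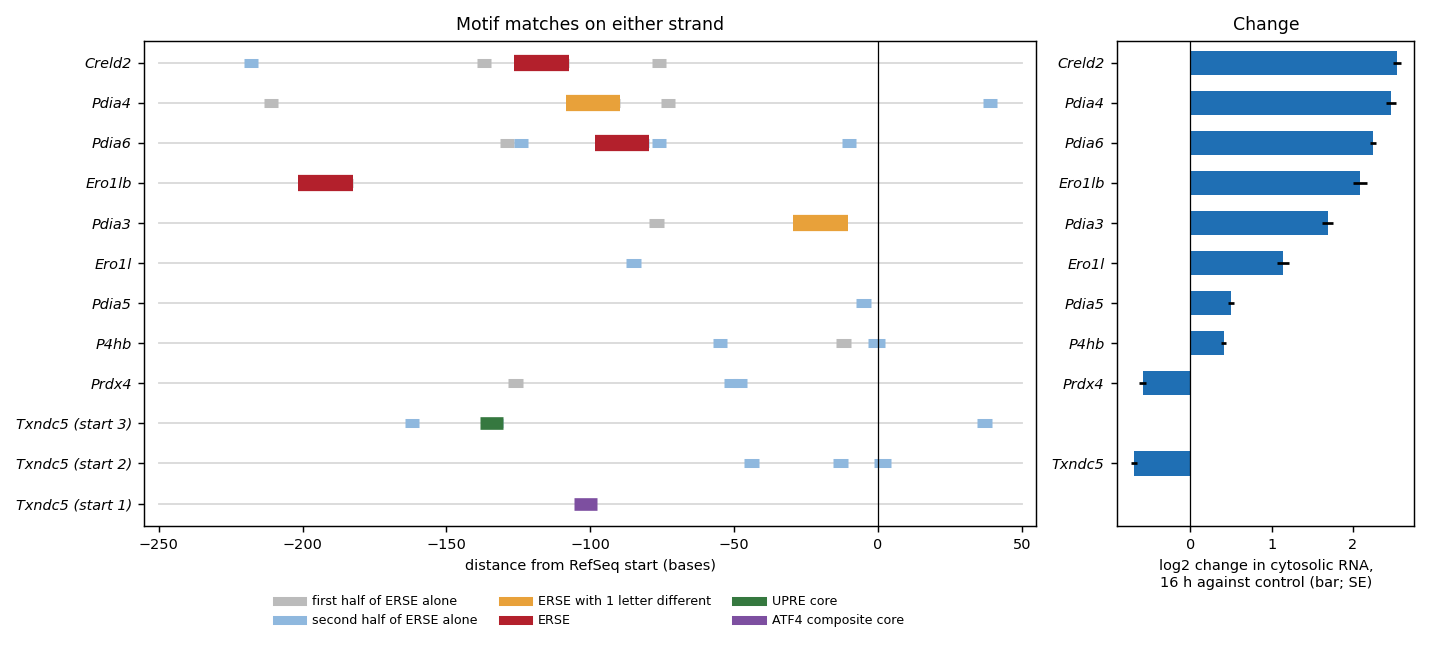
Left, matches to the ERSE, to its parts alone and to the UPRE and ATF4 cores (coloured boxes, either strand) against distance in bases from the RefSeq start, 1 line per start. Right, the log2 change in cytosolic RNA at 16 h of thapsigargin against control (bars start at 0; error bars are SE). The 5 genes with an exact or 1-letter-different ERSE occupy the top 5 lines, from Creld2 (2.54) to Pdia3 (1.69).

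Levels are compared between genes as CPM per kb of the annotated transcript with the longest coding sequence. In control cytosolic RNA P4hb, the classical isomerase that also serves as the beta subunit of collagen prolyl 4-hydroxylase, stood highest at 640.9 CPM per kb. Txndc5, an isomerase with several thioredoxin-like domains, followed at 285, Pdia6 at 235, Pdia3 at 232.1 and Prdx4 at 205.1, where the libraries of Pdia6 and Pdia3, and of Pdia3 and Prdx4, overlapped. Lower down came Pdia4 (111.4), Ero1l (69.2), Pdia5 (40.6), Creld2 (35.7) and Ero1lb (6.67), with no overlap between neighbours. At 16 h the order began with Pdia6 at 1217.1, ahead of P4hb (924.1), Pdia3 (813.7) and Pdia4 (671.4), the last 3 overlapping in neighbouring pairs. Creld2 rose in this order from the ninth place to the fifth (226.5), and Ero1lb stayed last at 30.8.

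The 10 genes together made up 4709.3 ± 188 CPM of control cytosolic RNA (SD, n = 4), 4026.4 ± 80.9 at 1 h, 11058.8 ± 497.9 at 16 h and 8710.2 ± 253.8 at 16 h + PERKi. P4hb supplied 39% of this sum in control and 23.9% at 16 h, while Pdia6 went from 10.9% to 24%. In polysome RNA the sum was 14292.2 ± 566.7 CPM in control, 6557.9 ± 159.3 at 1 h, 24568.4 ± 739.6 at 16 h and 21176.9 ± 305.8 at 16 h + PERKi (SD, n = 4). The 4 conditions did not overlap in either sum. These CPM values were scaled over all 32 libraries, whereas each test below was scaled over the libraries in its own fit, so a fitted fold change can differ somewhat from the ratio of mean CPM.

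**Figure D2:**
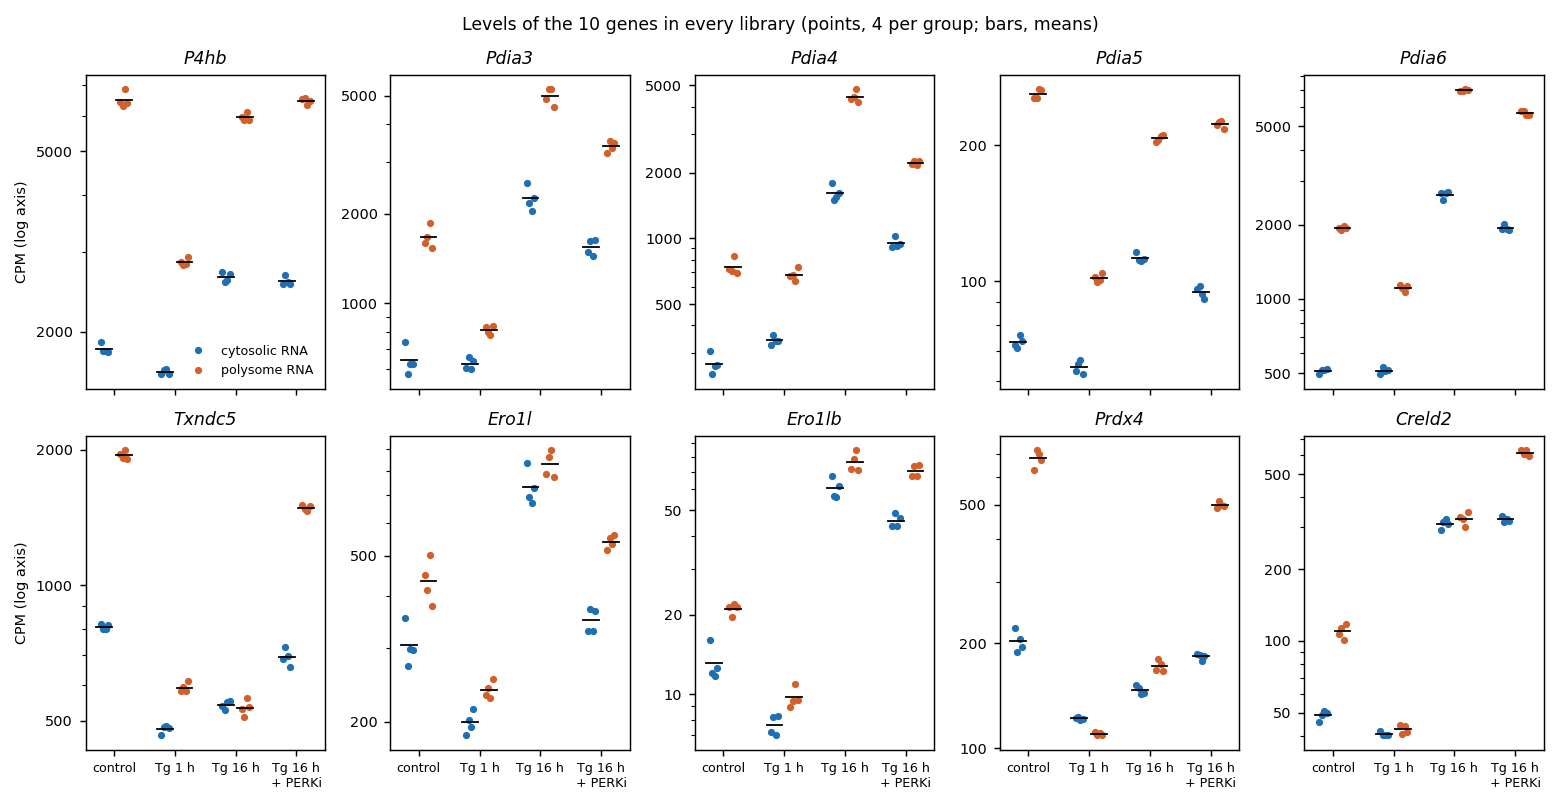
CPM on a log axis (each panel with its own range) of the 10 genes in the 4 conditions, with blue points for cytosolic and orange points for polysome libraries (4 per group) and bars at the means. Pdia4 in cytosolic RNA rises from 267.2 CPM in control to 1610.6 at 16 h, whereas Prdx4 in polysome RNA falls from 680.9 CPM in control to 109.9 at 1 h.

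After 1 h of thapsigargin, cytosolic RNA of most of the genes was lower than in control. Of the 10, Pdia4 alone rose (log2 change 0.34, SE 0.0636, 1.27-fold) and 7 fell, against 28.1% of the 12366 genes tested that rose and 28.1% that fell (edgeR quasi-likelihood test, called at an adjusted p under 0.05). The 4 with the largest falls were the oxidase Ero1lb (-0.79), the isomerase Txndc5 (-0.77), the peroxidase Prdx4 (-0.75) and the oxidase Ero1l (-0.63). P4hb, Pdia5 and Creld2 fell by 0.18, 0.20 and 0.28 on the log2 scale. Pdia3 (-0.05, edgeR adjusted p = 0.572) and Pdia6 (-0.01, edgeR adjusted p = 0.792) did not pass the test, and their libraries overlapped with control. The median change of the 10 genes was -0.24, beside 0 for all genes tested.

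After 16 h most of the genes stood above control. In cytosolic RNA 8 of the 10 rose and 2 fell, against 37.9% of all genes tested that rose and 39.4% that fell. Creld2 (5.82-fold), Pdia4 (5.54-fold), Pdia6 (4.76-fold), Ero1lb (4.25-fold), Pdia3 (3.22-fold) and Ero1l (2.2-fold) rose most, Pdia5 rose 1.41-fold and P4hb 1.33-fold. Txndc5 fell 1.62-fold and Prdx4 1.5-fold. For each of the 10 genes the 4 libraries at 16 h lay apart from the 4 of control, as they did for 66.8% of all genes. The median change of the 10 was 1.41, beside -0.01 for all genes, whose quartiles were -0.67 and 0.47.

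Between 1 h and 16 h, 9 of the 10 rose in cytosolic RNA and none fell, against 37.7% of all genes that rose and 37.7% that fell. The range ran from Ero1lb (2.87, 7.32-fold) and Creld2 (2.82, 7.06-fold) to Prdx4 (0.16, 1.12-fold). Txndc5 was not called (0.07, edgeR adjusted p = 0.0898), but was with DESeq2 (0.1, DESeq2 adjusted p = 0.00444). These 3 comparisons share their libraries in pairs, so they are not independent of each other.

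Among the isomerases, Pdia6, which works with the chaperone BiP, had cytosolic levels of 497.6, 515.9, 512.7 and 518.5 CPM in control, 494, 530.6, 508.6 and 513 at 1 h and 2677, 2517.7, 2676.5 and 2717.4 at 16 h. The 16 h libraries were all high, and those of control and 1 h were mixed. Pdia4, an isomerase with more catalytic domains than the classical one, read 305.3, 239.2, 261.4 and 262.8 CPM in control, 326.5, 361.6, 338.7 and 341 at 1 h and 1784.6, 1503.7, 1538.2 and 1615.9 at 16 h. Its 3 conditions did not overlap, although the highest control library came close to the lowest one at 1 h. Pdia3, the partner of calnexin and calreticulin in folding glycoproteins, covered 576.8 to 743.6 CPM in control, 600.8 to 660.3 at 1 h and 2049.1 to 2533.8 at 16 h. Replicate 1 was the highest library of 7 of the 10 genes in control and again at 16 h in cytosolic RNA. Replicate 2 was highest for 7 at 16 h + PERKi in cytosolic RNA. In polysome RNA replicate 3 was highest for 8 in control and for 7 at 16 h. The shares of all genes were not computed for these counts.

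P4hb and Pdia5 moved less. P4hb had 1901.2, 1813.2, 1818.1 and 1801.5 CPM in control cytosolic RNA, 1612.6, 1644.2, 1653.8 and 1618.5 at 1 h and 2709.6, 2574.6, 2607.6 and 2683.8 at 16 h, with no overlap between conditions. Pdia5, a less studied member of the family, covered 71 to 76.1 CPM in control, 62.2 to 66.8 at 1 h and 110.8 to 115.9 at 16 h. Txndc5 went the other way, from 819.9, 801.6, 801 and 818.7 CPM in control to 464.3, 485.5, 486.4 and 483.4 at 1 h and 540.5, 528.9, 549.9 and 553.2 at 16 h. Among the isomerases of this group, Txndc5 alone thus had lower cytosolic RNA than control at both times. Some bases of exons in Pdia3, Pdia6 and Txndc5 overlap genes on the opposite strand, and the sources used here do not give the strand setting of the counting. Reads from those bases therefore cannot be assigned to 1 gene. The overlap was 18 of 3139 bases with Catsper2 for Pdia3, 50 of 3745 with Atp6v1c2 for Pdia6, and 224 with Bmp6 and 311 with Gm31834 of 4492 for Txndc5.

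Both oxidases fell first and rose later. Ero1l read 354.5, 271.8, 299.4 and 297.3 CPM in control, 185.6, 202.2, 194.7 and 215.3 at 1 h and 837.3, 690.5, 668 and 726.9 at 16 h in cytosolic RNA. Ero1lb, the isoform best known from secretory tissues such as the pancreas, read 16.1, 12, 11.7 and 12.6 CPM in control, 7.17, 8.21, 6.96 and 8.27 at 1 h and 67.5, 56.4, 56.2 and 61.7 at 16 h. The 3 conditions were apart for both genes. The peroxidase Prdx4 had 221.9, 189.5, 206.1 and 194.9 CPM in control, 122.3, 122.7, 120.7 and 121.6 at 1 h and 152.3, 148.6, 143.2 and 143.8 at 16 h, below control at both times. Creld2, an ER-resident protein with EGF-like repeats and a reported isomerase-like activity, read 45.8, 48.9, 50.8 and 49.8 CPM in control, 41.9, 40.4, 40.2 and 40.1 at 1 h and 290.4, 315.4, 324.1 and 307.8 at 16 h.

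In polysome RNA the 1 h time point was lower for nearly the whole group. None of the 10 genes rose and 9 fell, against 41.1% of the 12065 genes tested that rose and 38.5% that fell. Prdx4 fell 5.97-fold (log2 change -2.58, SE 0.0457), from 630.2, 719.1, 700 and 674.2 CPM in control to 111.6, 108.9, 110.3 and 108.9 at 1 h. Txndc5 fell 3.16-fold, from 1911.1 to 2000.2 CPM in control to 581.7 to 612.5, and P4hb fell 2.19-fold, from 6289.9 to 6871.6 to 2805.3 to 2926.1. Creld2 (-1.31), Pdia5 (-1.30), Ero1lb (-1.07), Pdia3 (-0.98), Ero1l (-0.82) and Pdia6 (-0.75) fell as well. Pdia4 stayed at -0.06 (edgeR adjusted p = 0.291), with 693.7 to 831.4 CPM in control and 636 to 742 at 1 h, and was the one gene of the 10 whose polysome libraries overlapped there (69.8% of all genes had no overlap). The median change was -1.1, beside 0.03 for all genes.

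At 16 h the polysome changes of the 10 genes split in direction. Of the 10, 6 rose and 4 fell against control, with 42.3% of all genes tested rising and 42.9% falling. Pdia4 rose 5.7-fold, from 693.7 to 831.4 CPM to 4194.8 to 4827.6, followed by Pdia6 (3.45-fold), Ero1lb (3.44-fold), Pdia3 (2.85-fold), Creld2 (2.83-fold) and Ero1l (1.81-fold). Prdx4 fell 4.16-fold, Txndc5 3.83-fold, Pdia5 1.32-fold and P4hb 1.15-fold. P4hb and Pdia5 were therefore higher in cytosolic RNA and lower in polysome RNA than control at this time. Against 1 h, 9 of the 10 rose and Txndc5 fell (-0.28), where 38.4% of all genes rose and 40% fell. Ero1lb (7.22-fold) and Creld2 (7-fold) had the largest rises in that comparison and Prdx4 the smallest (1.44-fold).

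Translational efficiency (TE) was taken as the log2 ratio of polysome to cytosolic CPM of each sample, and a change in it was tested over the 32 libraries as an interaction term (polysome against cytosolic, by condition), with each sample as a block. In control, the TE of 7 of the 10 mRNAs was higher than that of at least 85.8% of all genes tested. Pdia6 had a log2 TE of 1.92 ± 0.035 (SD, n = 4; above 97.6% of genes), Pdia5 1.83 ± 0.0177, P4hb 1.82 ± 0.0686 and Prdx4 1.75 ± 0.175. Both oxidases were lower, Ero1lb at 0.7 ± 0.207 (above 70.5%) and Ero1l at 0.51 ± 0.196 (above 64.6%). Creld2 (1.16 ± 0.114, above 83.3%) lay between. Fractions with up to 4 ribosomes were not analysed here, and scaling each library to its total hides any loss of polysomes common to all mRNAs.

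After 1 h of thapsigargin TE was lower for all 10 genes. None rose and 10 fell, against 33.4% of the 12561 genes tested that rose and 34.4% that fell. Prdx4 fell most, from log2 TE values of 1.51, 1.92, 1.76 and 1.79 in control to -0.13, -0.17, -0.13 and -0.16, a change of -1.89 (SE 0.0748, 3.72-fold lower). That took it from above 95.5% of all genes in control to above 41.1% at 1 h. Pdia5 (-1.17), Creld2 (-1.09), P4hb (-1.02), Pdia3 (-1), Txndc5 (-0.96), Pdia6 (-0.81) and Pdia4 (-0.48) also fell, and the samples of these genes did not overlap with control. Ero1lb (-0.36, edgeR adjusted p = 0.0233) and Ero1l (-0.25, edgeR adjusted p = 0.0382) fell least, and the samples of Ero1lb overlapped with control (64.2% of all genes had no overlap). Among all genes the change in TE differed with coding length, with a median of -0.41 for 600 to 900 coding nucleotides, -0.47 for 900 to 1200, -0.27 for 1200 to 1600 and 0.01 for 1600 to 2000. The 10 coding sequences run from 822 nucleotides in Prdx4 to 1923 in Pdia4, and with a correction for coding length Ero1l (-0.03) and Ero1lb (-0.19) were no longer called, while Creld2 came to -0.67. Larger falls changed in size too. Over all alternatives Prdx4 ran from -3.03 to -1.47 and Txndc5 from -1.59 to -0.65, and both were called lower in each. Ero1l also lost its call with DESeq2 (-0.21) and without control replicate 2 or 3 or 1 h replicate 2, 3 or 4 (-0.18 to -0.25), and Ero1lb without control replicate 3 or 1 h replicate 2 or 4 (-0.29 to -0.32).

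At 16 h TE was still below control for most of the genes. None rose and 8 fell, against 31.1% of all genes that rose and 33% that fell. Prdx4 (-1.52), Txndc5 (-1.29), Creld2 (-1.09) and Pdia5 (-0.95) had the largest falls, followed by P4hb (-0.65), Pdia6 (-0.51), Ero1lb (-0.36) and Ero1l (-0.33). Txndc5 read 1.26, 1.26, 1.32 and 1.22 in control and -0.03, -0.05, 0.03 and -0.04 at 16 h, and Creld2 1.22, 1.21, 0.99 and 1.23 in control and 0.18, 0.05, -0.11 and 0.17 at 16 h. Both sets were far apart, so the 5.82-fold higher cytosolic Creld2 RNA came with 2.83-fold more polysome RNA. Pdia4 was at the control level (-0.01, interval of 2 SE from -0.19 to 0.18, edgeR adjusted p = 0.957), and Pdia3 did not pass the test (-0.22, edgeR adjusted p = 0.0574). Samples of Pdia3, Pdia4, Ero1l and Ero1lb overlapped with control, and the share of all genes that overlapped was not computed for this comparison. Pdia3 was called lower without control replicate 1 (-0.32) or without 16 h replicate 2 (-0.27) or 3 (-0.3).

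Some of these 16 h falls depended on how TE was modelled. With a correction for coding length Ero1l (-0.14) and Ero1lb (-0.23) lost the call and Pdia6 came to -0.28 and Creld2 to -0.66. Analysis of partial variance (APV), which regresses polysome on cytosolic values within conditions, called 4 of the 10 genes higher and 2 lower, where the interaction test called none higher and 8 lower. Pdia4 (2.68), Pdia3 (1.82), Ero1lb (2.13) and Ero1l (0.8) were called higher, and for both oxidases this turned a lower call into a higher one. Pdia6 (1.64) and Creld2 (1.74) had positive values without a call, and P4hb (-0.11) and Pdia5 (-0.37) lost their call too. Txndc5 (-1.77) and Prdx4 (-2.23) were lower under APV as well, and their smallest falls under any alternative were -1 and -1.03. The APV slopes of 9 of the genes ran from -0.131 to 0.165, so by its construction this model subtracted little of their cytosolic change, and the slope of Prdx4 was -0.545, so for Prdx4 it added to the fall. At 1 h APV moved Ero1l to -0.8, Ero1lb to -1.22, Txndc5 to -1.59 and Prdx4 to -3.03, and Pdia4 lost its call at -0.1.

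From 1 h to 16 h, TE rose for 6 of the 10 genes and fell for Txndc5 (-0.33), against 14.5% of all genes that rose and 13.6% that fell. Pdia3 rose most (0.77, SE 0.1, 1.71-fold), from 0.46, 0.28, 0.38 and 0.39 at 1 h to 0.95, 1.27, 1.36 and 1.02 at 16 h with no overlap. Pdia4 (0.47), Prdx4 (0.38), P4hb (0.36), Pdia6 (0.29) and Pdia5 (0.23) rose too. Ero1l (-0.08, interval of 2 SE from -0.28 to 0.13), Ero1lb (0, from -0.24 to 0.24) and Creld2 (0, from -0.14 to 0.15) were not called, and their samples overlapped between the times. Here too the share of all genes that overlapped was not computed. Over all genes the split of 1824 higher and 1703 lower calls became 2156 and 1193 when only the libraries of these 2 conditions were fitted. Under APV the rises were larger, for example 2.85 for Pdia3, 2.79 for Pdia4, 2.45 for Pdia6, 1.08 for P4hb, 0.97 for Pdia5 and 0.8 for Prdx4, Ero1lb (3.34) and Ero1l (1.6) were called higher, and Txndc5 lost its call (-0.18).

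**Figure D3:**
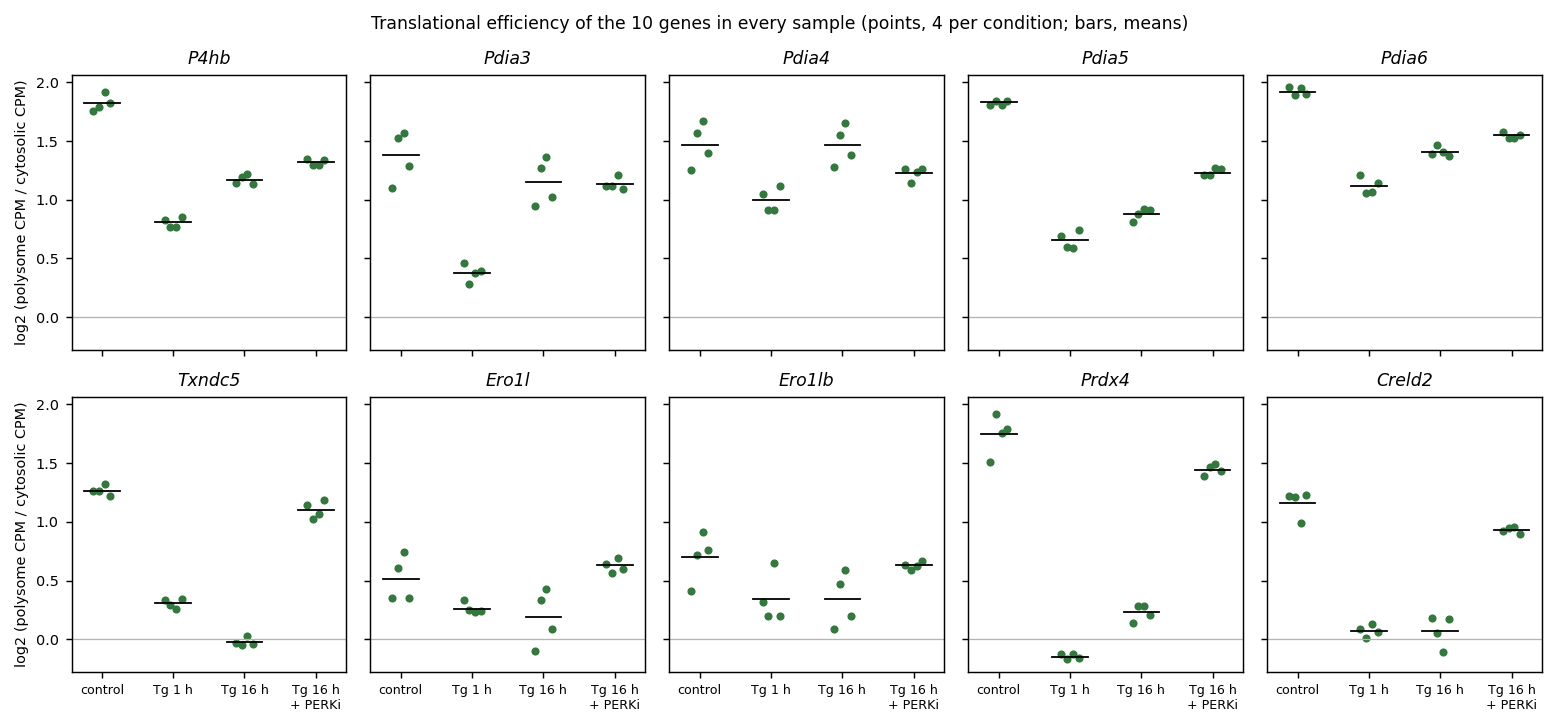
Log2 ratio of polysome to cytosolic CPM of each gene in each sample (points, 4 per condition; bars, means), on 1 shared linear axis. Prdx4 drops from a mean of 1.75 in control to -0.15 at 1 h and stands at 1.44 at 16 h + PERKi, while Txndc5 goes from 1.26 in control through 0.31 at 1 h to -0.02 at 16 h and 1.1 at 16 h + PERKi.

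Inhibition of PERK over the last 4 h was compared with 16 h of thapsigargin alone to see which of the late levels differed when the kinase was blocked. In cytosolic RNA 3 of the 10 genes were higher and 6 lower with the inhibitor, against 42.2% of all genes that rose and 32.5% that fell. Ero1l fell 2.01-fold (log2 change -1, SE 0.0772), from 837.3, 690.5, 668 and 726.9 CPM to 330, 373.9, 330.8 and 369.4. Its libraries with the inhibitor overlapped with the control range of 271.8 to 354.5 CPM. Pdia4 fell 1.63-fold (-0.71), Pdia3 1.41-fold (-0.49), Pdia6 1.32-fold (-0.40), Ero1lb 1.28-fold (-0.35) and Pdia5 1.15-fold (-0.20). Pdia4 read 910.4, 1026, 922 and 941.5 CPM with the inhibitor, between the control and the 16 h libraries. Txndc5 (0.40, 1.32-fold) and Prdx4 (0.37, 1.3-fold) rose, from 528.9 to 553.2 CPM to 658.1 to 730.3 for Txndc5 and from 143.2 to 152.3 to 177.6 to 186.9 for Prdx4.

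P4hb (0.02, edgeR adjusted p = 0.557) did not pass the test and Creld2 passed it narrowly (0.11, edgeR adjusted p = 0.0405), with overlapping libraries for both. Creld2 lost the call without 16 h replicate 1 (0.08) or 4 (0.11) or inhibitor replicate 1 (0.1) or 3 (0.11). With only the libraries of these 2 conditions in the fit, the median change of all genes moved from 0.1 to -0.04 and the split over all genes from 5223 higher and 4016 lower calls to 4265 and 4792. P4hb became lower (-0.11, edgeR adjusted p = 0.0139), Creld2 came to -0.02, Pdia5 to -0.33 and Prdx4 to 0.24. Creld2 also lost its call with DESeq2 (0.05).

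Polysome RNA with the inhibitor was higher for 5 of the 10 genes and lower for 4, against 42.1% of all genes that rose and 40.7% that fell. Prdx4 rose 2.96-fold, from 167.5, 180.6, 174.4 and 166.8 CPM to 489.1, 512.2, 500.3 and 496.3, and Txndc5 rose 2.84-fold, from 530.7, 509.2, 562.6 and 537.3 to 1510, 1475.9, 1462.3 and 1500.2. Creld2 rose 1.93-fold, from 301.3 to 346.3 CPM to 594.5 to 632, although its cytosolic RNA differed little. P4hb (0.15) and Pdia5 (0.13) rose by less. Pdia4 fell 1.96-fold, from 4194.8 to 4827.6 CPM to 2176.2 to 2260, and Ero1l (-0.59), Pdia3 (-0.53) and Pdia6 (-0.28) fell as well. Ero1lb was not called (-0.08, edgeR adjusted p = 0.235) and its libraries overlapped.

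TE was higher with the inhibitor for 8 of the 10 genes and lower for Pdia4 (-0.24, edgeR adjusted p = 0.0311), against 26.4% of all genes that rose and 33.7% that fell. Prdx4 rose by a log2 change of 1.22 (SE 0.074, 2.32-fold), from 0.14, 0.28, 0.28 and 0.21 to 1.39, 1.47, 1.49 and 1.43. Txndc5 rose by 1.13 (SE 0.0536, 2.18-fold), from -0.03, -0.05, 0.03 and -0.04 to 1.14, 1.02, 1.07 and 1.19. Creld2 rose by 0.86, from 0.18, 0.05, -0.11 and 0.17 to 0.92, 0.95, 0.96 and 0.9. Of the 10 genes, only Pdia3 and Ero1lb had samples that overlapped between the conditions (57.4% of all genes had no overlap). With the inhibitor Prdx4 stood above 97.7% of all genes in TE, Txndc5 above 91.7% and Creld2 above 86.9%. Ero1l (0.44), Pdia5 (0.35), Ero1lb (0.29), P4hb (0.15) and Pdia6 (0.14) rose by less, and Pdia3 was not called (-0.02, interval of 2 SE from -0.22 to 0.18).

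The smaller TE changes with the inhibitor did not hold under every model. The lower call of Pdia4 ended with DESeq2 (-0.21, DESeq2 adjusted p = 0.0628), with its size factors (-0.21, edgeR adjusted p = 0.0567) and with no filter on low counts (-0.23, edgeR adjusted p = 0.0563). Among all genes the median was 0.38 for 600 to 900 coding nucleotides and -0.27 for 1600 to 2000, and with a correction for coding length Pdia6 (0.07) lost its call, Pdia4 turned to 0.03, and Prdx4 and Creld2 came to 0.81 and 0.56. Under APV, Ero1l (-0.51), Pdia6 (-0.27) and Ero1lb (-0.16) turned negative and were not called, Pdia5 (0.12) lost its call, Pdia3 (-0.63) was called lower, and Pdia4 came to -1.03. With 1 sample left out, 6 to 8 of the 10 genes were called: Pdia4 lost its call without 16 h replicate 2 or 3 or any 1 of the 4 inhibitor replicates (-0.17 to -0.24), Ero1lb without 16 h replicate 1 or 4 or any 1 of the inhibitor replicates (0.21 to 0.31), and Pdia6 without 16 h replicate 4 or inhibitor replicate 1 (0.14).

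**Figure D4:**
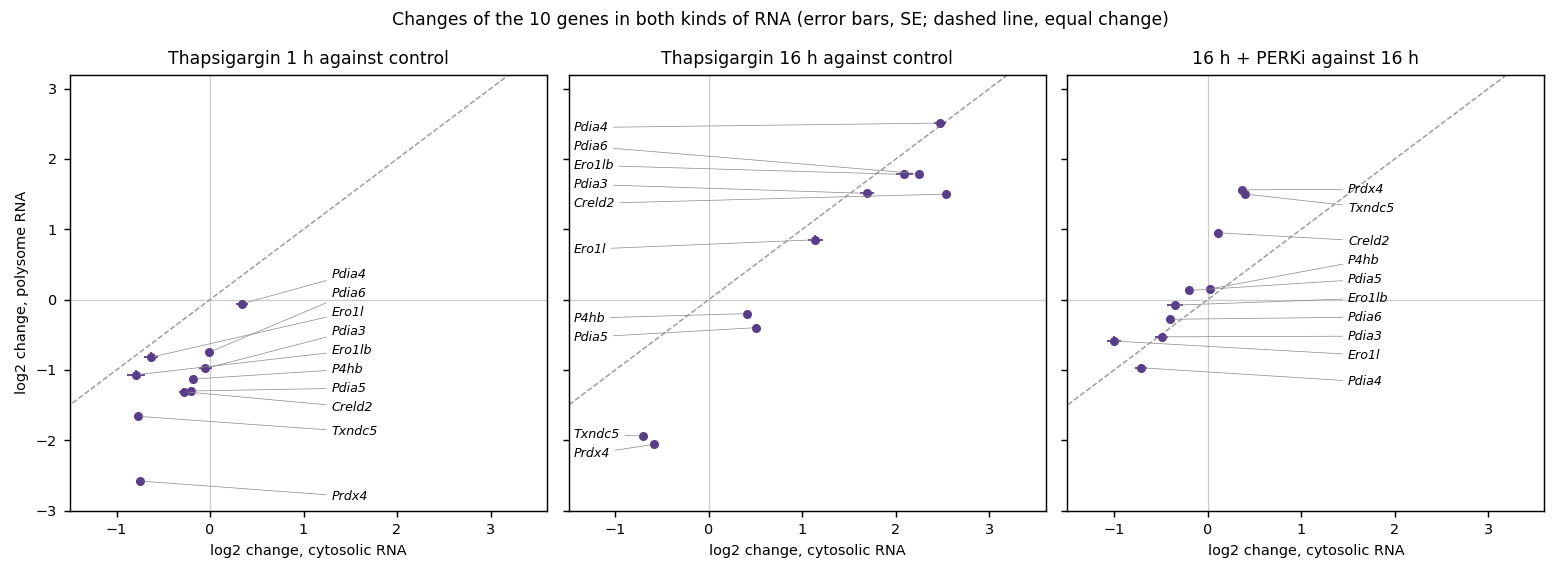
Log2 change in polysome RNA (vertical) against log2 change in cytosolic RNA (horizontal) of the 10 genes in 3 comparisons, with SE as error bars and a dashed line where both changes are equal. At 1 h all 10 points lie below the line. At 16 h Prdx4 and Txndc5 lie in the lower left and P4hb and Pdia5 just below 0 on the polysome axis, and with the inhibitor Prdx4 (1.56) and Txndc5 (1.5) are highest on that axis.

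Set against control, the RNA of most of the 10 genes was higher at 16 h + PERKi. In cytosolic RNA 7 of the 10 genes were higher and 2 lower, against 38.1% of all genes that were higher and 35.2% lower. Creld2 (6.3-fold), Pdia6 (3.61-fold), Pdia4 (3.39-fold), Ero1lb (3.33-fold), Pdia3 (2.29-fold), P4hb (1.35-fold) and Pdia5 (1.23-fold) were higher, and Txndc5 (-0.29) and Prdx4 (-0.21) lower. Ero1l was not called (0.13, edgeR adjusted p = 0.132), but without control replicate 1, the highest library of that group, it was (0.2, edgeR adjusted p = 0.0164). In polysome RNA 6 were higher and 3 lower, against 36.8% and 40.3% of all genes, led by Creld2 (5.46-fold), Ero1lb (3.25-fold) and Pdia4 (2.91-fold), with Prdx4 (-0.49), Txndc5 (-0.43) and Pdia5 (-0.27) below control. P4hb was level in polysome RNA (-0.05, edgeR adjusted p = 0.202).

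TE at 16 h + PERKi was lower than control for 7 of the 10 genes and higher for none, against 27.1% and 16.3% of all genes. Pdia5 (-0.59), P4hb (-0.50), Pdia6 (-0.37), Prdx4 (-0.30), Pdia4 (-0.25), Creld2 (-0.23) and Txndc5 (-0.16) were called. Pdia3 (-0.24, edgeR adjusted p = 0.0579), Ero1l (0.11, edgeR adjusted p = 0.391) and Ero1lb (-0.07, edgeR adjusted p = 0.671) were not. The median of all genes was -0.12 here, and with DESeq2 size factors it was -0.04. That scaling left 4 of the 10 genes called, as Pdia4 (-0.16), Creld2 (-0.15) and Txndc5 (-0.08) lost the call. Pdia4 also lost it without control replicate 2, 3 or 4 or any 1 of the 4 inhibitor replicates (-0.18 to -0.27), Txndc5 without control replicate 3 or inhibitor replicate 2 or 3 (-0.13 to -0.15), and Pdia3 was called without control replicate 1 (-0.33). Over all genes the split of 2050 higher and 3400 lower calls became 2623 and 2605 with DESeq2 size factors and 2598 and 2480 with the correction for coding length. With that correction P4hb came to -0.33 and Pdia6 to -0.21, Pdia4 (-0.11), Creld2 (-0.1) and Txndc5 (0) were not called, and Ero1l was called higher (0.28). APV called 4 of the 10 genes higher, Pdia3 (1.19), Pdia4 (1.66), Ero1lb (1.97) and Ero1l (0.3), of which Pdia4 had been called lower by the interaction test. P4hb (0.01), Pdia6 (1.37) and Creld2 (2.67) were positive without a call, Pdia5 (-0.25) lost its call, and Txndc5 (-0.35) and Prdx4 (-0.52) were called lower.

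Most of the other isomerase family members tested were lower in cytosolic RNA at both times. Of 16 listed genes, 11 passed the filter on low counts (Pdia2, Pdilt, Erp27, Agr2 and Agr3 did not), and their cytosolic RNA was called higher for 0 and lower for 10 at 1 h (median -0.55), against 28.1% higher and 28.1% lower of all genes tested, and higher for 3 and lower for 7 at 16 h (median -0.31), against 37.9% and 39.4%. Txndc11, a membrane-bound member, rose at 16 h (0.86), and Txndc12, a small soluble member, fell (-1.11), as did the membrane-bound Tmx3 (-1.08) and Tmx1 (-0.74). With the inhibitor 7 were higher and 2 lower than at 16 h (median 0.18), against 42.2% and 32.5% of all genes (median 0.1), among them Txndc11 (0.57), Tmx1 (0.66) and Txndc12 (0.47). In TE 9 of the 11 fell at 1 h and 1 rose (median -0.7), 8 fell and 1 rose at 16 h (median -0.78), and 7 rose and 1 fell with the inhibitor (median 0.71). Of all genes tested for TE, 33.4% rose and 34.4% fell at 1 h, 31.1% and 33% at 16 h and 26.4% and 33.7% with the inhibitor, with medians of -0.01, -0.04 and -0.09. Erp44, which retains Ero1 and Prdx4 in the early secretory pathway, had TE changes of -1.54 at 1 h and -1.37 at 16 h.

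Most of the other ER oxidases, peroxidases and selenoproteins tested were also lower. Of the 12 tested of 13 listed (Gpx7 was not), 10 fell and 0 rose in cytosolic RNA at 1 h (median -0.56), 7 fell and 2 rose at 16 h (median -0.55), and 10 rose and 1 fell with the inhibitor against 16 h (median 0.57). The shares of all genes that fell in these comparisons were 28.1%, 39.4% and 32.5%, and 28.1%, 37.9% and 42.2% rose. The ER glutathione peroxidase Gpx8 fell by 2.54 on the log2 scale at 16 h and rose by 1.81 with the inhibitor. The sulfhydryl oxidase Qsox1 fell (-1.16), and Vimp, the selenoprotein S of the ER degradation machinery, rose (1.6) at 16 h. In TE 9 fell and 2 rose at 1 h (median -0.85), 9 fell and 1 rose at 16 h (median -0.97), and 8 rose and 1 fell with the inhibitor (median 0.51). Of all genes, 34.4% fell and 33.4% rose in TE at 1 h, 33% and 31.1% at 16 h, and 33.7% and 26.4% with the inhibitor. The selenoprotein Sepn1 had TE changes of -1.77 at 1 h, -1.74 at 16 h and 1.09 with the inhibitor.

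Most ER chaperones outside the isomerase family rose in cytosolic RNA at 16 h. Of 21 listed, 15 rose and 4 fell (median 0.84), against 37.9% and 39.4% of all genes, with the BiP gene Hspa5 at 4.06, its cofactor Sdf2l1 at 3.41, the nucleotide exchange factor Hyou1 at 2.96 and Manf, a secreted BiP partner, at 2.85. At 1 h 4 rose and 12 fell (median -0.3; 28.1% and 28.1% of all genes), and with the inhibitor 7 rose and 10 fell against 16 h (median -0.11; 42.2% and 32.5% of all genes), with Hspa5 at -1.3. Their TE was called lower for 15 and higher for 4 at 1 h (median -0.67) and lower for 13 and higher for 5 at 16 h (median -0.58), with the proline isomerase Ppib at -1.42 and -1.28. With the inhibitor 9 rose and 7 fell in TE (median 0.13). Over all genes 33.4% rose and 34.4% fell in TE at 1 h, 31.1% and 33% at 16 h, and 26.4% and 33.7% with the inhibitor.

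Of 10 regulators upstream of ER folding genes, 6 rose and 1 fell in cytosolic RNA at 16 h (median 0.75), against 37.9% and 39.4% of all genes, among them Ddit3 (5.02), Atf6 (1.65), Xbp1 (1.08) and Atf4 (0.87). With the inhibitor 1 rose and 7 fell against 16 h (median -0.76; 42.2% and 32.5% of all genes), with Ddit3 at -3.37, Atf6 at -1.67 and Atf4 at -1.6. The 3 KDEL receptors, which return soluble ER proteins from the Golgi, all fell in cytosolic RNA at 1 h (median -1.01) and at 16 h (median -0.39) and all rose with the inhibitor (median 0.73), against 28.1%, 39.4% and 42.2% of all genes. All 3 also fell in TE at 1 h (median -1.31) and 16 h (median -1.26) and rose with the inhibitor (median 0.77), Kdelr2 by 1.08, directions in which 34.4%, 33% and 26.4% of all genes were called.

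Within the group, 8 genes had profiles alike over the 16 cytosolic libraries, with Pearson correlations of log2 CPM between 0.765 and 0.994. Txndc5 and Prdx4 correlated with each other (0.967) and at -0.248 to 0.274 with the other 8. The 16 libraries fall into 4 conditions, so these values mostly describe the order of the conditions and have no test. By the same measure over 9931 genes with a mean of at least 5 CPM, the gene most like each was Slc35b1 for P4hb (0.9979), Gid4 for Pdia3 (0.998), Napb for Pdia4 (0.9977), Aaed1 for Pdia5 (0.991), Atg13 for Pdia6 (0.9982), Zdhhc5 for Txndc5 (0.9876), Scpep1 for Ero1l (0.995), Dnajc3 for Ero1lb (0.9971), Fam3c for Prdx4 (0.9875) and Smim14 for Creld2 (0.9977). Known ER chaperone genes stood among the closest 3 for Pdia4 (Hsp90b1, 0.9963), Pdia6 (Calr, 0.9974), Ero1lb (Dnajc3, named above) and Creld2 (Sdf2l1, 0.997). The KDEL receptor gene Kdelr1 (0.9799) was among the closest 3 for Txndc5.

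On the GRCm38 assembly (GENCODE M21) the 10 genes are protein-coding and lie on 9 chromosomes. P4hb spans chr11:120560298-120573253, Pdia3 chr2:121413775-121438687, Pdia4 chr6:47796141-47813430, Pdia5 chr16:35397312-35490873, Pdia6 chr12:17266545-17284770 and Txndc5 chr13:38500079-38528824. Ero1l spans chr14:45283087-45318771, Ero1lb chr13:12565874-12611396, Prdx4 chrX:155323918-155340754 and Creld2 chr15:88819646-88826683. Txndc5 and Ero1lb share chromosome 13.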

How the data were processed

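RNA from cytosol and from polysome fractions of mouse embryonic fibroblasts was measured by RNA-seq in 32 libraries of 16 samples, 4 per condition. The deposited table holds whole-number counts per gene symbol. The submitters' processing notes name the aligner HISAT, the build mm10 and DESeq2 1.9.23, without saying what each was used for. How reads were counted, on which strand and against which annotation is not stated in the labels. The table has 20234 genes, of which 3234 were at 0 in every library.

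From the counts, CPM were computed here with TMM scaling over the libraries. Changes were tested with edgeR 4.0.16 (quasi-likelihood, robust, R 4.3.3) after a filter on low counts (minimum count 10, minimum total 15), with cytosolic and polysome RNA fitted apart over all 16 libraries of a kind. TE was tested as an interaction over the 32 libraries with the sample as a block, since both kinds of RNA came from 1 sample per the series design text. SE is the size of the log2 change divided by the square root of F, and p-values were adjusted (Benjamini-Hochberg) over all genes tested and called under 0.05. Library totals ran from 19.32 M to 41.78 M counts.

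The 10 genes are named in every comparison. The other lists (isomerase family, oxidases, chaperones, regulators, KDEL receptors, cell type markers) give counts, with up to 4 genes named by smallest adjusted p, and like profiles name up to 3 genes per member. The members and lists were chosen with earlier results of these data known. No source says that replicates were separate cultures. The p-values then rest on differences between these samples only, and those may be technical.

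Alternatives were DESeq2 1.42.0, its size factors in edgeR, no filter, only the 2 conditions compared, leaving out each sample, a replicate block, and for TE no block, a coding length correction (lowess, span 0.3) and APV. The scripts were tested for recovery of known changes in simulated counts with the same spread for every gene. That does not test the calls made in these data. Promoters come from the RefSeq table on GRCm38.p6 and gene positions from GENCODE M21 on GRCm38, the assembly that mm10 names.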

Additional observations from a re-analysis of the deposited data

Results flagged for a closer look

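In 3 of the 80 groups of 4 libraries examined, 1 library stood apart from the other 3 by Dixon's criterion, which chance alone meets in about 1 group in 20. P4hb in cytosolic control RNA was highest in replicate 1 (1901.2 CPM, the others 1801.5 to 1818.1). Txndc5 in cytosolic RNA at 1 h was lowest in replicate 1 (464.3 CPM, the others 483.4 to 486.4). Creld2 in cytosolic RNA at 1 h was highest in replicate 1 (41.9 CPM, the others 40.1 to 40.4).

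Cytosolic and polysome RNA of the same gene changed in opposite directions, with the difference itself called in the test of TE, in 4 cases. P4hb at 16 h against control rose in cytosolic RNA (0.41) and fell in polysome RNA (-0.2), a TE change of -0.65. Pdia5 did the same at 16 h against control (0.5 and -0.4, TE -0.95) and at 16 h + PERKi against control (0.3 and -0.27, TE -0.59). With the inhibitor against 16 h alone, Pdia5 fell in cytosolic RNA (-0.2) and rose in polysome RNA (0.13), a TE change of 0.35.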

How the results depend on the processing

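Over the 150 results for single genes, 138 kept direction and call with DESeq2 and with DESeq2 size factors. With no filter on low counts 4 lost the call and 1 changed sign, and with only the 2 conditions in the fit 1 and 3. The number of the 10 genes called, both directions added, stayed within 1.5 times in every comparison, except TE at 16 h + PERKi against control, with 4 called in place of 7 under both DESeq2 settings (the cause was not tested). That sum hides turned calls under APV: at 16 h against control it called 4 higher and 2 lower in place of 0 and 8, at 16 h + PERKi against control 4 and 2 in place of 0 and 7, and with the inhibitor against 16 h 4 and 2 in place of 8 and 1. With 1 sample left out, the number called in cytosolic RNA was 8 at 1 h, 10 at 16 h, 9 between the times, 8 to 9 with the inhibitor against 16 h and 9 to 10 against control, where Ero1l was gained. In polysome RNA it was 9, 10, 10, 9 and 9 in the same order, and in TE 8 to 10, 8 to 9, 7, 6 to 8 and 5 to 8. The calls lost in at least 1 of these fits were Creld2 in cytosolic RNA with the inhibitor against 16 h, and in TE Ero1l and Ero1lb at 1 h, Pdia4, Pdia6 and Ero1lb with the inhibitor against 16 h, and Pdia4 and Txndc5 at 16 h + PERKi against control.

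No source says that the replicate numbers pair the samples. Deviations of same-numbered libraries correlated at -0.477 to 0.649 across conditions, with 13 of 48 pairs over 0.1, and no pair of conditions had all 4 numbers over 0.1. Between control and 16 h all were positive (0.0275 to 0.649 in cytosolic and 0.0294 to 0.488 in polysome RNA), and 5 of 8 cytosolic and 6 of 8 polysome libraries correlated best with their own number, a hint from the data and not from the design. The pair of 1 h and 16 h + PERKi was also positive throughout in cytosolic RNA (0.0953 to 0.346), but not in polysome RNA (-0.0186 to 0.138). Control and 1 h ran from -0.454 to 0.0443 in cytosolic and from -0.391 to -0.0328 in polysome RNA. A replicate block ended 1 of 100 results in cytosolic and polysome RNA, Creld2 with the inhibitor against 16 h (0.12, edgeR adjusted p = 0.0556). Deviations of the cytosolic and the polysome library of a sample correlated at -0.316 to 0.16 (median 0.0542), so these data show little sharing within samples. Without the sample block in TE, Pdia3 was called at 16 h (-0.22) and at 16 h + PERKi (-0.24) against control.

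Signs turned, mostly near 0, for P4hb (-0.04 with either DESeq2 setting, -0.11 with only the 2 conditions) and Creld2 (-0.02 with the latter) in cytosolic RNA with the inhibitor against 16 h. In TE they turned for Pdia4 at 16 h (0.05 with either DESeq2 setting), for Ero1lb between the times (0.01 with either and with no filter, 0.05 with only the 2 conditions) and against control at 16 h + PERKi (0.01 with either, 0.1 with coding length), and with the inhibitor against 16 h for Pdia3 (0.01 with either, 0.04 with coding length) and Pdia4 (0.03 with coding length). APV turned 17 of 50 results, by its construction where the slope is near 0. These were, at 16 h, Pdia3 (1.82), Pdia4 (2.68), Pdia6 (1.64), Ero1l (0.8), Ero1lb (2.13) and Creld2 (1.74), between the times Ero1l (1.6) and Ero1lb (3.34), and with the inhibitor against 16 h Pdia6 (-0.27), Ero1l (-0.51) and Ero1lb (-0.16). Against control at 16 h + PERKi they were P4hb (0.01), Pdia3 (1.19), Pdia4 (1.66), Pdia6 (1.37), Ero1lb (1.97) and Creld2 (2.67). APV called 7346 genes in TE between the times, against 3527.

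With 1 sample left out, signs turned for Pdia3 in cytosolic RNA at 1 h (-0.09 to 0.02) and in TE for Pdia4 at 16 h (-0.09 to 0.06), Ero1l (-0.16 to 0.02), Ero1lb (-0.09 to 0.1) and Creld2 (-0.03 to 0.06) between the times, Pdia3 with the inhibitor against 16 h (-0.08 to 0.06) and Ero1lb against control (-0.16 to 0). Each of the 10 genes had at least 166 counts in every library.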
